A study of Homo sapiens with 4 samples.

Results

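The kinetochore and spindle checkpoint genes examined here are 46 genes chosen by name for the proteins they encode, which build the attachment site between a chromosome and the mitotic spindle and watch over that attachment. All 46 were found by symbol among the 20263 genes of the deposited count table, and all 46 passed the filter on low counts, with no fewer than 147 counts in any library. They were measured by RNA sequencing in MDA-MB-231, a human cell line long kept in culture from a breast cancer without hormone receptors, in 4 libraries. Control cells received the vehicle DMSO and treated cells RB-BC, with 2 libraries in each group. The series title calls RB-BC a ribociclib derivative, and ribociclib inhibits the kinases CDK4 and CDK6. Treatment lasted 24 h, no source used here gives the dose, and the treatment protocol names the agent Rib_CA where the sample labels name RB-BC. All libraries come from 1 cell line, and no label says that the libraries of a group were separate cultures, so p-values measure only the spread between these libraries.

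A kinetochore forms on centromeric chromatin that carries the histone H3 variant CENP-A. The constitutive centromere-associated network (CCAN) binds this chromatin through the cell cycle, and in mitosis the outer KMN network, made of KNL1, the MIS12 complex and the NDC80 complex, joins it and grips microtubules. Kinetochores without a proper attachment activate the spindle assembly checkpoint, in which MAD and BUB proteins and the kinase TTK hold back the anaphase-promoting complex, while the chromosomal passenger complex with Aurora B corrects faulty attachments. Many of these genes are transcribed mainly in late S, G2 and M phase. Their promoters are known for the CHR element, a short motif bound by the MuvB complex, which represses them as part of DREAM (with RBL1 or RBL2 and E2F4) and activates them together with B-MYB and FOXM1. Inhibitors of CDK4 and CDK6 keep proteins of the RB family in their repressive form.

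Library totals ran from 34774542 to 42786422 counts. DMSO 2 stood apart in its mitochondrially encoded transcripts, which took 21.7% of its counts (95% Wilson interval 21.68% to 21.71%), against 8.68% to 10.3% in the other libraries. Of the 6 markers fixed for a mesenchymal-type breast line, VIM, CD44, EGFR, AXL and CAV1 were between 267 and 5604 CPM (counts scaled to a common library total) in every library, and SPARC was between 0.575 and 1.31 CPM. Of 6 luminal and epithelial markers, ESR1 stayed at or below 0.661 CPM, CDH1 at or below 0.0575 CPM and PGR at or below 1.54 CPM. FOXA1 was between 6.36 and 8.06 CPM, EPCAM between 5.56 and 9.49 CPM and GATA3 between 8.09 and 19.0 CPM, with the highest GATA3 value in DMSO 2, and the T cell marker CD3E had no counts in any library.

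Most kinetochore and checkpoint genes were lower in cells treated with RB-BC. Of the 46 genes, 31 fell and 1, CENPH, rose (edgeR's quasi-likelihood test, adjusted p under 0.05 over all 13744 genes tested), whereas 7.53% of all tested genes fell and 8.58% rose. The median log2 fold change of the 46 genes, RB-BC over DMSO, was −0.87, which corresponds to 54.6% of the DMSO level, and that of all tested genes was −0.0016. Their falls were of moderate size. The smallest called fall was −0.58 (CENPT), the largest −1.43 (CENPE), and 18 genes were lower by at least 2-fold. In 39 of the 46 genes both RB-BC libraries lay below both DMSO libraries, which held for 32.1% of all tested genes. In RNA from whole cultures, fewer cells in the phases that transcribe these genes and less RNA per cell cannot be told apart.

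Summed over the 46 genes, the levels were 3567 CPM in DMSO 1, 3054 CPM in DMSO 2, 1870 CPM in RB-BC 1 and 1958 CPM in RB-BC 2, where CPM is from here on scaled by the trimmed mean of M-values (TMM). Both treated libraries thus lay well below both controls, and the DMSO libraries differed more from each other than the RB-BC libraries did. As a share of all counts the genes took 0.386% in DMSO 1 (95% Wilson interval 0.384% to 0.388%), 0.271% in DMSO 2 (0.269% to 0.273%), 0.190% in RB-BC 1 (0.188% to 0.191%) and 0.201% in RB-BC 2 (0.199% to 0.202%). These intervals cover counting error only. DMSO 1 exceeded DMSO 2 in 30 of the 46 genes, with a median log2 difference of 0.20 between these libraries, while RB-BC 1 exceeded RB-BC 2 in 21.

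**Figure D1:**
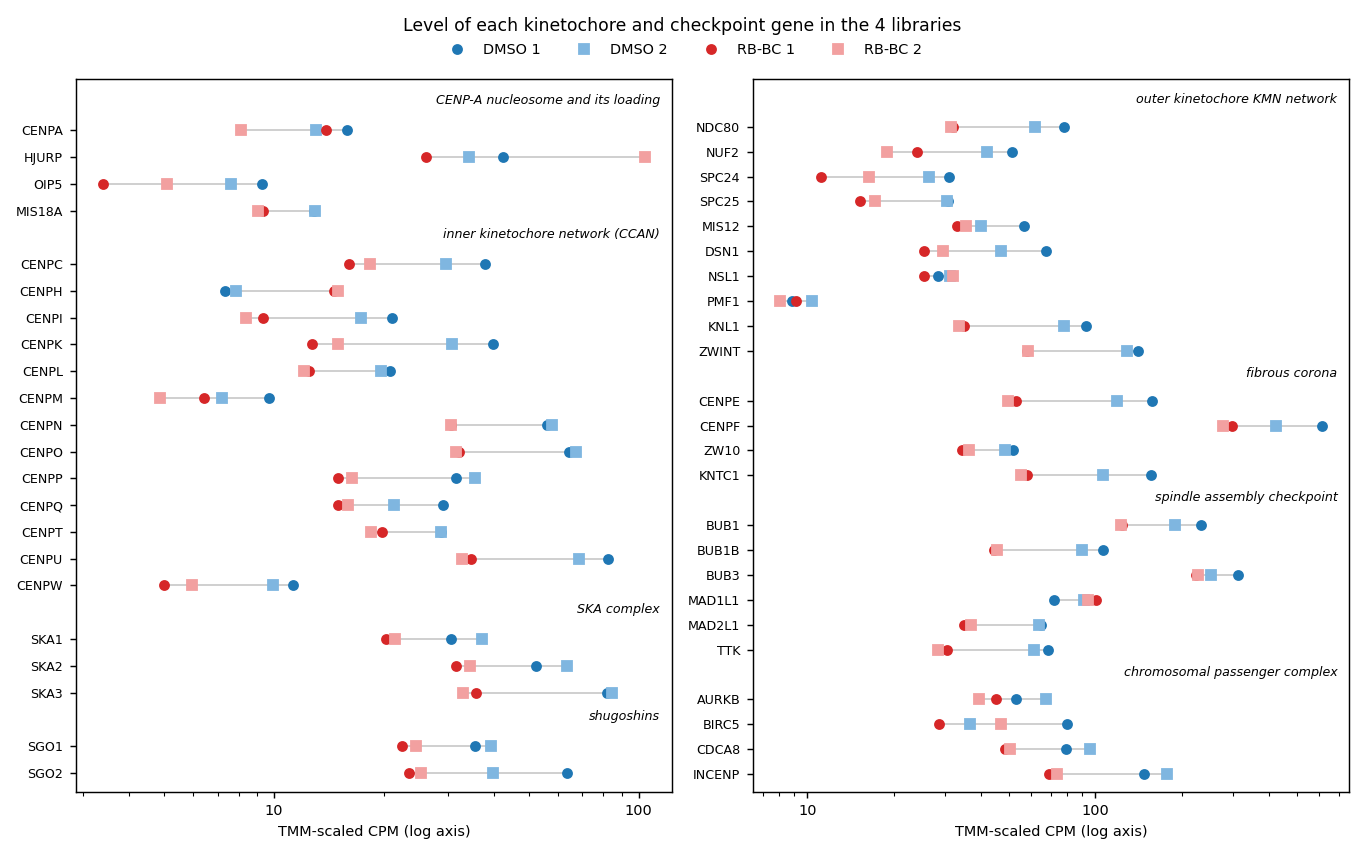
TMM-scaled CPM (log axis) of each of the 46 genes, grouped by role, with circles and squares for replicates 1 and 2, blue for DMSO and red for RB-BC. For most genes the red points lie left of the blue ones, as they do for CENPE (52.9 and 49.7 CPM against 157 and 119 CPM). CENPH shows the opposite order, and the RB-BC libraries lie far apart for HJURP.

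The calls depended on which libraries set the spread. Without DMSO 1, 31 of the 46 genes fell (11.6% of all tested genes), and without DMSO 2, whose mitochondrial share was high, 36 fell (12.5% of all), with BUB3, CENPQ, MIS12, OIP5 and ZW10 added. When RB-BC 1 was left out, 0 fell (0.402% of all), and HJURP was called higher instead of CENPH. When RB-BC 2 was left out, CENPK, SPC24 and CENPE fell (0.99% of all) and 0 rose. In each of these 4 fits 1 group has 1 library, which is assumed to vary like the other group, whose pair alone sets the spread. The median log2 fold changes were −0.818 without RB-BC 1 and −0.928 without RB-BC 2, against −0.826 without DMSO 1 and −0.965 without DMSO 2. With library totals alone in place of TMM, 16 fell (3.02% of all), and of all called genes 65.56% were higher, against 53.25% with TMM. With library totals after removal of mitochondrially encoded genes, an alternative added after the data were seen, 31 fell (7.85% of all). The number was 31 with RLE factors (7.59% of all), 31 with genes of a mean of at least 50 counts (8.49%), 31 with mitochondrially encoded genes removed (7.59%), 30 without a filter (5.94%), 34 with DESeq2 (9.39%) and 32 with limma-voom (7.68%).

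**Figure D2:**
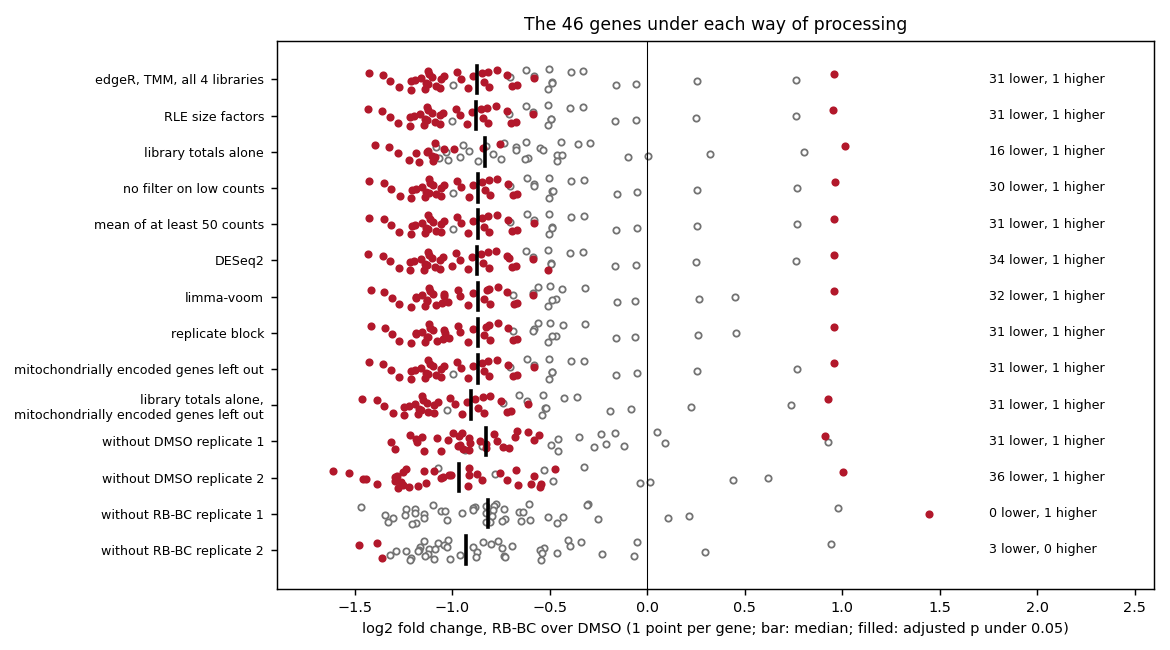
Log2 fold change of each of the 46 genes (1 point per gene, filled where adjusted p was under 0.05) under each way of processing, with the median as a bar and the number of calls at the right. The medians lie between −0.818 and −0.965 throughout, while the number of falls runs from 0 to 36.

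Promoter sequences are shown because promoters of many such genes are known for the CHR element. A shared cause of the falls was not tested. RefSeq promoter windows (build GRCh38.p14, 250 bases before to 50 after each start) matched 37 of the 46 genes by symbol; BIRC5, BUB3, CENPH, CENPL, CENPM, KNL1, KNTC1, MIS18A and TTK had no entry. The windows were searched on both strands for the CHR letters TTTGAA or TTCGAA. They are printed 5′ to 3′ up to the start, or to the end of a match that crosses it, for the called genes SKA3 and ZWINT, which had the largest falls among genes with CHR letters, and for NSL1, the gene without a call that lay nearest to no change. Capitals mark CHR letters (TTCAAA where they lie on the opposite strand) and CCAAT boxes, of which NSL1 has neither in its window. CENPE (log2 fold change −1.43) and CENPK (−1.36) fell further than SKA3 and ZWINT, but their windows hold no CHR letters. HJURP (0.76) and CENPA (−0.39) hold such letters and were not called.
SKA3, chr13:21176550-21176802, minus strand: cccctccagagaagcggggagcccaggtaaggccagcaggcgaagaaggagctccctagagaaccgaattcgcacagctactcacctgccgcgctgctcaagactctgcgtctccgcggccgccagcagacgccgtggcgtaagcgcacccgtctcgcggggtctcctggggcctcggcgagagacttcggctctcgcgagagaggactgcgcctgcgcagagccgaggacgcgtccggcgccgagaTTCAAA
ZWINT, chr10:56361260-56361509, minus strand: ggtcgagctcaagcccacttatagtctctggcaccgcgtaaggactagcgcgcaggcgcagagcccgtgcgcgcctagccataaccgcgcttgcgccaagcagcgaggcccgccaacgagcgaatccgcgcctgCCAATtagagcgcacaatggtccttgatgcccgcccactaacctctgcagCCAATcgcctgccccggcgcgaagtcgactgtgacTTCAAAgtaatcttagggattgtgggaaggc
NSL1, chr1:212791778-212792027, minus strand: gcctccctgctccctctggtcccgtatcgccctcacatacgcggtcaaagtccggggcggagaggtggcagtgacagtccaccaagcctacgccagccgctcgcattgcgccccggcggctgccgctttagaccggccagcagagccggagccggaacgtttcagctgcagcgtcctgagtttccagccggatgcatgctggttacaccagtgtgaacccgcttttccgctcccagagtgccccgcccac

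CHR letters stood in the windows of 21 of the 37 genes (56.8%), against 15.7% of the 10959 tested genes with a window and 16.4% of all 35116 windows in the table. Among the genes that fell they were found in 17 of 27 (63.0%), and among those without a call in 4 of 10 (40.0%). Windows with such letters made up 23.6% of the 843 called-lower genes with an entry. A match began within 50 bases of the start in 18 of the 37 genes with a window, against 4.95% of the 10959 tested genes with a window. CCAAT, bound by NF-Y, was present in 25 of 37 (67.6%), against 42.9% of tested genes, in 17 of 27 genes that fell (63.0%) and in 8 of 10 without a call (80.0%). E2F letters (TTTGGCGC, TTTCCCGC, TTTGCCGC or TTTCGCGC) were present in 4 of 37 (10.8%), against 6.45% of tested genes, in 1 of 27 genes that fell (3.7%) and in 3 of 10 without a call (30.0%). No test was made of these shares, a match is a description of letters and not of binding, and a gene with several windows had more chances to hold one. The matches near the start are given with 9 bases on each side for genes of the NDC80 complex, the checkpoint, the passenger complex and SGO1, all of which fell, and for CENPA and OIP5, which were not called. Capitals mark 1 match per gene, and in NDC80 the letters TTCAAA of another match on the opposite strand stand just before it in lower case.
NDC80: aatttcaaaTTCGAAcggctttgg
NUF2: ggcggcaagTTTGAAaagtgatga
SPC25: tgcactaggTTTGAAatcggaaag
BUB1: cgcggggtaTTCGAAtcggcggcg
BUB1B: accgttaaaTTTGAAacttggcgg
MAD2L1: gtcgttactTTTGAAacgcttggc
CDCA8: actgtggagTTTGAAttgggtggc
INCENP: gccttcagtTTTGAAaatcatagt
SGO1: gcggaaaatTTCGAAtgtggcggc
CENPA: agcgagcgaTTTGAAcgcgagcgg
OIP5: tggcgtgtaTTCGAAaggaaggcg

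**Figure D3:**
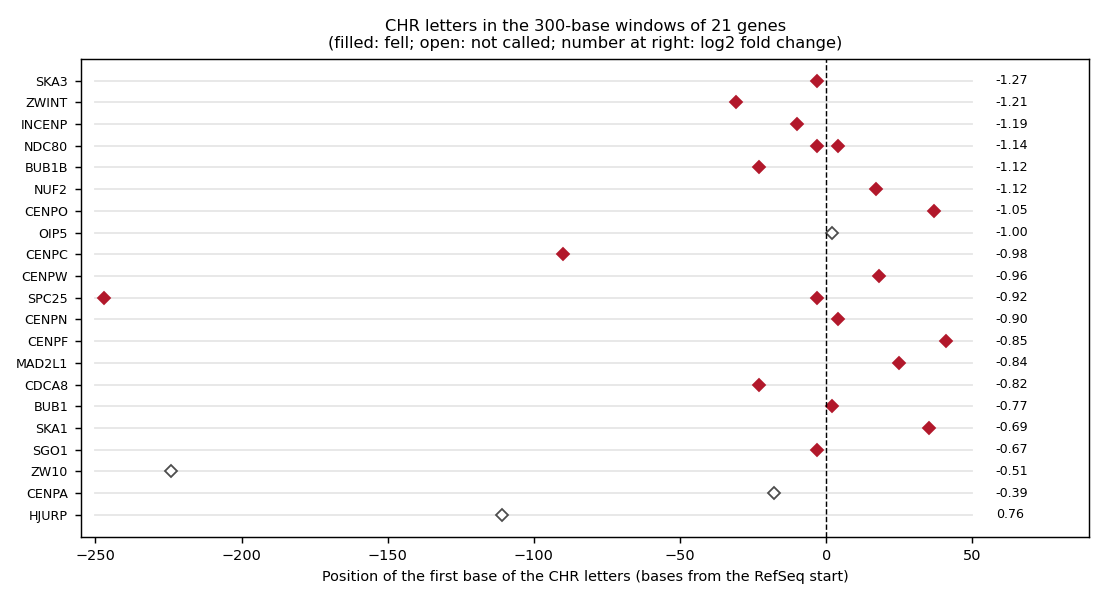
Position of CHR letters relative to the RefSeq start (dashed line) in the 21 genes that hold them, ordered by log2 fold change, with filled diamonds for genes that fell and open ones for genes without a call. Most diamonds cluster around the start, and those of HJURP, CENPC and ZW10, and 1 of the 2 in SPC25, lie further upstream.

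The genes of the CENP-A nucleosome and its loading were the group without a call, 0 of 4. CENPA (ENSG00000115163), the centromeric histone, was at 15.9 and 13.0 CPM in DMSO 1 and DMSO 2 and at 13.9 and 8.12 CPM in RB-BC 1 and RB-BC 2, so the groups overlapped (log2 fold change −0.39 ± 0.29 SE, edgeR adjusted p = 0.370). HJURP (ENSG00000123485), the chaperone that deposits CENP-A, was at 42.3 and 34.3 CPM in DMSO but at 26.1 CPM in RB-BC 1 and 104 CPM in RB-BC 2. One treated library thus lay below both controls and the other far above them, and the fitted value of 0.76 ± 0.58 (edgeR adjusted p = 0.386) is an average of opposite values. With RB-BC 2 removed HJURP was at −0.553 (edgeR adjusted p = 0.306), and with RB-BC 1 removed it was at 1.445 (edgeR adjusted p = 0.0464). The Mis18 subunits, which license the loading of new CENP-A, were lower in both treated libraries without passing. OIP5 was at 9.30 and 7.64 CPM in DMSO and at 3.39 and 5.09 CPM with RB-BC (−0.998 ± 0.272, edgeR adjusted p = 0.0568). MIS18A was at 12.9 CPM in each DMSO library and at 9.34 and 9.03 CPM with RB-BC (−0.49 ± 0.17, edgeR adjusted p = 0.1001). OIP5 passed without DMSO 2 (edgeR adjusted p = 0.0483), with DESeq2 (adjusted p = 0.0206) and limma-voom (adjusted p = 0.0496).

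Of the 13 CCAN genes 10 fell and 1 rose, with a median log2 fold change of −0.96. CENPK (ENSG00000123219) went from 39.8 and 30.8 CPM to 12.7 and 14.9 CPM (−1.36 ± 0.19, edgeR adjusted p = 0.0132). CENPU, which brings the kinase PLK1 to the inner kinetochore, went from 82.2 and 68.4 CPM to 34.6 and 32.8 CPM (−1.16 ± 0.15). CENPP went from 31.6 and 35.5 CPM to 14.9 and 16.3 CPM (−1.10 ± 0.16). CENPO went from 64.2 and 67.5 CPM to 32.2 and 31.6 CPM (−1.05 ± 0.14), and its exons overlap those of ADCY3 on the opposite strand, so that reads of the pair are not separable without strand. In all of these the treated libraries lay below both controls and close to each other. The other falls were CENPI (−1.12), CENPC (−0.98), which links CENP-A chromatin to the MIS12 complex, CENPW (−0.96), CENPN (−0.90), CENPL (−0.72) and CENPT (−0.58). CENPP likewise overlaps exons of IPPK on the opposite strand. Other annotated opposite-strand exon overlaps pair CENPN with CMC2, CENPU with PRIMPOL, CENPT with TSNAXIP1, MIS12 with DERL2, OIP5 with OIP5-AS1 and SGO1 with SGO1-AS1. On the same strand BUB1B shares exons with the read-through gene BUB1B-PAK6, and 7% of the exon length of CENPA overlaps SLC35F6. CENPT, another link to the outer kinetochore, was the marginal call (edgeR adjusted p = 0.0468) and was lost with no low-count filter (edgeR adjusted p = 0.0538).

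CENPH (ENSG00000153044) was the exception. It was at 7.36 and 7.85 CPM in DMSO and at 14.6 and 14.9 CPM with RB-BC (0.96 ± 0.17, edgeR adjusted p = 0.0209), from 277 and 263 counts to 632 and 655 counts. Its libraries agreed closely within each group and did not overlap between groups. Its value held at 0.979 when RB-BC 1 was left out and at 0.940 when RB-BC 2 was, but neither passed (edgeR adjusted p = 0.142 and 0.119). CENPH sits in 1 subcomplex with CENPK, CENPI and CENPM. The ratio of CENPH to CENPK counts, which needs no scaling, was 0.185 and 0.255 in DMSO and 1.15 and 1.00 in RB-BC. That of CENPH to CENPI counts was 0.348 and 0.453 in DMSO and 1.56 and 1.78 in RB-BC. These ratios, and those given below, were picked after the values were seen. CENPM, at 9.67 and 7.19 CPM in DMSO and 6.41 and 4.86 CPM in RB-BC, did not pass (−0.58 ± 0.25, edgeR adjusted p = 0.162). CENPQ, at 29.1 and 21.3 CPM in DMSO and 14.98 and 15.9 CPM in RB-BC, also narrowly missed (−0.70 ± 0.20, edgeR adjusted p = 0.0605) and passed with DESeq2 (adjusted p = 0.0249).

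**Figure D4:**
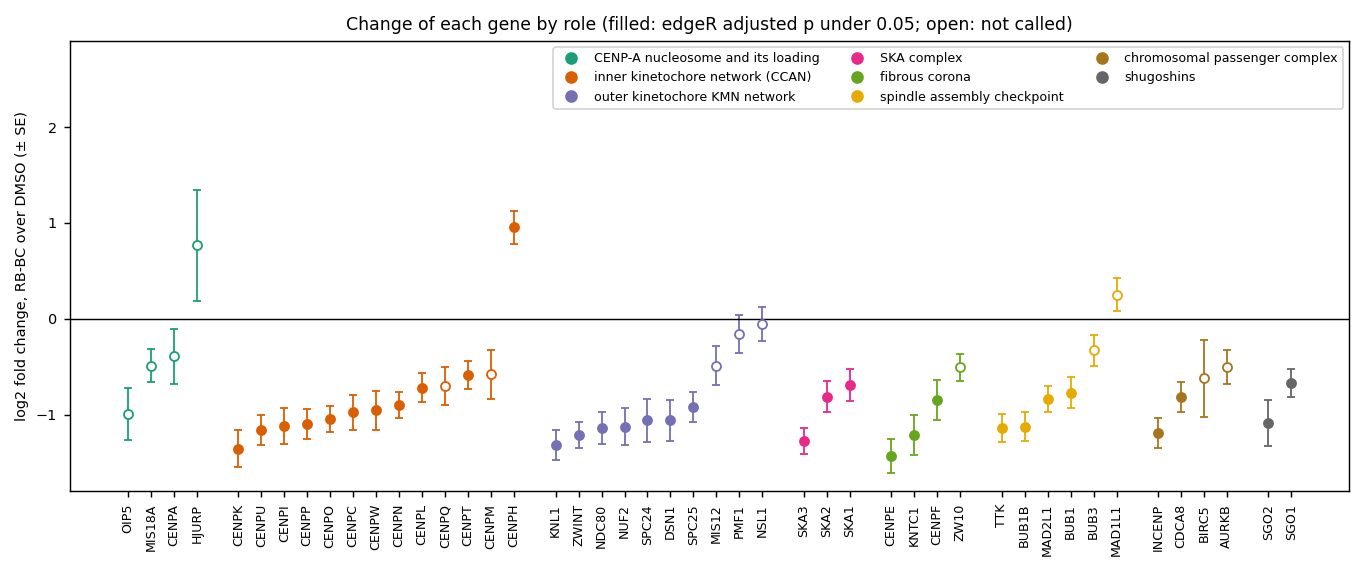
Log2 fold change (RB-BC over DMSO, bars are ± SE) of each gene, coloured by role and ordered within its role, filled where the edgeR adjusted p was under 0.05. All but HJURP, CENPH and MAD1L1 lie below 0, and CENPH is the filled point above it.

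In the outer kinetochore 7 of 10 KMN genes fell, with a median of −1.06, and the genes that did not pass all belong to the MIS12 complex. KNL1 (ENSG00000137812), the scaffold on which BUB proteins assemble, went from 93.1 and 77.6 CPM to 34.9 and 33.5 CPM (−1.32 ± 0.15, edgeR adjusted p = 0.00939). Its binding partner ZWINT went from 141 and 129 CPM to 57.95 and 58.3 CPM (−1.21 ± 0.14). NDC80, the microtubule-binding subunit of its complex, went from 77.7 and 61.9 CPM to 32.0 and 31.5 CPM (−1.14 ± 0.16). The treated libraries were almost identical in each. All 4 NDC80 complex genes fell to a similar degree, with NUF2 at −1.12, SPC24 at −1.06 and SPC25 at −0.92, and the ratio of NUF2 to NDC80 counts overlapped between groups, at 0.661 and 0.679 in DMSO and 0.750 and 0.599 in RB-BC. SPC24 did not pass without DMSO 1 (edgeR adjusted p = 0.0561).

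Of the 4 MIS12 complex genes 1 fell. DSN1, the subunit that Aurora B phosphorylates to regulate binding to the inner kinetochore, fell from 67.6 and 47.1 CPM to 25.4 and 29.6 CPM (−1.06 ± 0.21, edgeR adjusted p = 0.0277). NSL1 was at 28.4 and 31.2 CPM in DMSO and at 25.4 and 32.0 CPM with RB-BC (−0.06 ± 0.17, edgeR adjusted p = 0.844). PMF1 was at 8.82 and 10.4 CPM in DMSO and at 9.13 and 8.03 CPM with RB-BC (−0.16 ± 0.20, edgeR adjusted p = 0.594), and it shares exons with the read-through gene PMF1-BGLAP. For NSL1 and PMF1 the groups overlapped. MIS12 was at 56.6 and 39.9 CPM in DMSO and at 33.1 and 35.7 CPM with RB-BC, without overlap but with a wide control pair (−0.49 ± 0.20, edgeR adjusted p = 0.142), and it passed without DMSO 2 (−0.7193, edgeR adjusted p = 0.0189). Counts of NSL1 relative to DSN1 were 0.420 and 0.662 in DMSO and 0.996 and 1.08 in RB-BC. All 3 genes of the SKA complex, which follows microtubule tips with NDC80, fell: SKA3 went from 81.9 and 84.2 CPM to 35.8 and 32.9 CPM (−1.27 ± 0.14, edgeR adjusted p = 0.00838), SKA2 from 52.2 and 63.7 CPM to 31.5 and 34.5 CPM (−0.81 ± 0.16) and SKA1 from 30.5 and 37.1 CPM to 20.3 and 21.5 CPM (−0.69 ± 0.17). SKA3 had the smallest adjusted p of the 46 genes.

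The fibrous corona, the outermost layer that captures microtubules, had 3 falls among 4 genes. CENPE (ENSG00000138778), a kinesin that carries chromosomes to the spindle equator, went from 157 and 119 CPM to 52.9 and 49.7 CPM (−1.43 ± 0.18, edgeR adjusted p = 0.0107), the largest fall of the 46. CENPF, whose 23132 and 14225 counts in DMSO were the most of the set, went from 614 and 424 CPM to 298 and 279 CPM (−0.85 ± 0.21, edgeR adjusted p = 0.0449). KNTC1, which encodes ROD, went from 156 and 106 CPM to 57.9 and 55.3 CPM (−1.21 ± 0.21). In each the DMSO libraries lay much further apart than the RB-BC libraries. ZW10, which forms the RZZ complex with ROD and also serves vesicle transport in interphase, was at 51.9 and 48.7 CPM in DMSO and 34.4 and 36.4 CPM with RB-BC (−0.51 ± 0.14, edgeR adjusted p = 0.0576), passing with DESeq2 (adjusted p = 0.0274).

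Of the 6 checkpoint genes 4 fell. TTK, the kinase MPS1 that starts the signal, went from 68.7 and 61.3 CPM to 30.4 and 28.5 CPM (−1.14 ± 0.15, edgeR adjusted p = 0.0111). BUB1B, which encodes the inhibitor BUBR1, went from 106 and 90.1 CPM to 44.4 and 45.7 CPM (−1.12 ± 0.15). MAD2L1, the MAD2 protein that locks onto CDC20, went from 65.0 and 63.9 CPM to 35.1 and 37.0 CPM (−0.84 ± 0.13). BUB1, the kinase that marks centromeric histone H2A, was at −0.77 ± 0.16. The treated and control libraries did not overlap in any of these. The binding partners BUB3 and MAD1L1 did not pass. BUB3, which carries BUB1 and BUBR1 to kinetochores, was at 313 and 253 CPM in DMSO and 223 and 228 CPM with RB-BC (a log2 fold change of −0.33 ± 0.16, edgeR adjusted p = 0.207). It was lower in both treated libraries than in both controls, and it passed without DMSO 2 (−0.4736, edgeR adjusted p = 0.0369). MAD1L1, the kinetochore receptor of MAD2, was at 71.9 and 91.7 CPM in DMSO and 100 and 94.5 CPM with RB-BC (0.25 ± 0.17, edgeR adjusted p = 0.326). Both treated libraries of MAD1L1 lay above both controls, which held for 4548 of the 13744 genes tested. Within each library the ratio of BUB3 to BUB1B counts was 2.94 and 2.81 in DMSO and 5.02 and 4.99 in RB-BC, and that of MAD1L1 to MAD2L1 was 1.11 and 1.43 in DMSO and 2.86 and 2.56 in RB-BC. Neither ratio overlapped between groups. With 2 libraries a group the smallest two-sided p of an exact permutation test is 0.333, and the ratios were not tested.

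In the chromosomal passenger complex INCENP and CDCA8 fell, and AURKB and BIRC5 did not pass. INCENP, the scaffold that activates Aurora B, went from 148 and 177 CPM to 68.9 and 73.5 CPM (−1.19 ± 0.16, edgeR adjusted p = 0.0113). CDCA8, which encodes borealin, went from 79.0 and 95.8 CPM to 48.6 and 50.6 CPM (−0.82 ± 0.16). AURKB, the kinase itself, was at 53.0 and 67.5 CPM in DMSO and 45.3 and 39.4 CPM with RB-BC, lower in both treated libraries (−0.51 ± 0.18, edgeR adjusted p = 0.101), and it passed without DMSO 1 (−0.669, edgeR adjusted p = 0.0311). BIRC5, which encodes survivin, was at 79.8 and 36.7 CPM in DMSO and 28.7 and 47.1 CPM in RB-BC. The groups overlapped, and its value of −0.62 ± 0.40 (edgeR adjusted p = 0.316) was 0.0485 without DMSO 1 and −1.075 without DMSO 2. Both shugoshins, which protect centromeric cohesion until anaphase, fell. SGO1 went from 35.6 and 39.3 CPM to 22.5 and 24.6 CPM (−0.67 ± 0.15, edgeR adjusted p = 0.0361) and SGO2 from 63.5 and 39.7 CPM to 23.4 and 25.2 CPM (−1.09 ± 0.24, edgeR adjusted p = 0.0352).

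Levels were compared between genes per kilobase of the longest protein-coding transcript in GENCODE release 29, which only approximates the transcripts made in these cells. In DMSO the highest were ZWINT (72.0 CPM per kilobase), BUB1 (59.0), CENPF (50.4), AURKB (48.0) and INCENP (41.0). The lowest were CENPP (3.83), CENPC (4.87), CENPH (5.47) and CENPI (5.89). In RB-BC the order changed at the top, with BUB1 at 34.5, AURKB at 33.8, MAD1L1 at 32.6 and ZWINT at 31.0 CPM per kilobase, and CENPH stood at 10.6.

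A list of 73 further genes of chromosome segregation and its regulators, none of them among the 46, was counted in the same fit. Of these 24 fell and 2 rose, with a median log2 fold change of −0.37. Of all tested genes 7.53% fell and 8.58% rose, the shares to set beside the counts in each list below. Of 13 further centromere and corona genes 3 fell, among them SPDL1 (−0.99), which recruits dynein, and ZWILCH (−0.91), the third RZZ subunit, while NDEL1 was at −0.03 (edgeR adjusted p = 0.875). Of 8 genes of microtubule attachment and mitotic kinases 5 fell: the kinesin KIF18A (−1.07), HASPIN (−0.82), which marks histone H3 for the passenger complex, PLK1 (−0.79), SPAG5 (−0.74) and KNSTRN (−0.60). KIF2C was at −0.43 (edgeR adjusted p = 0.08997).

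Downstream of the checkpoint, 4 of 20 genes fell. They were TRIP13 (−0.88), which recycles MAD2, the checkpoint target CDC20 (−0.67) and the anaphase-promoting complex subunits ANAPC7 (−0.69) and CDC23 (−0.68). The other 12 of the 14 subunits of that complex did not pass, and ANAPC13 was at −0.04 (edgeR adjusted p = 0.934). Among 20 genes of cohesin and sister separation 6 fell and 1 rose. ESCO2, the acetyltransferase that establishes cohesion in S phase, went from 23.1 and 21.5 CPM to 6.29 and 6.32 CPM (−1.82 ± 0.17, edgeR adjusted p = 0.0068), a larger fall than that of any of the 46. SMC1A (−0.95) and the sororin gene CDCA5 (−0.89) also fell, PPP2R5B, a regulatory subunit of phosphatase PP2A, rose (0.92, edgeR adjusted p = 0.0430), and STAG2 was at 0.02 (edgeR adjusted p = 0.962).

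Among 12 genes of DREAM, MuvB, B-MYB and FOXM1, which control genes with a CHR element, 6 fell and 1 rose. FOXM1, an activator in G2, went from 130 and 155 CPM to 74.6 and 71.0 CPM (−0.97 ± 0.15, edgeR adjusted p = 0.0160). MYBL2, which encodes B-MYB, went from 109 and 170 CPM to 62.1 and 55.7 CPM (−1.24 ± 0.23, edgeR adjusted p = 0.0235). RBL1, a component of DREAM, went from 93.5 and 96.4 CPM to 37.1 and 38.7 CPM (−1.33 ± 0.13, edgeR adjusted p = 0.00779). E2F5 rose by 0.89 (edgeR adjusted p = 0.0475), and LIN37 was at 0.25 (edgeR adjusted p = 0.502). Of the 24 falls in the 73 genes, 1 passed when RB-BC 1 was left out and 2 when RB-BC 2 was, and neither rise passed in those fits.

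**Figure D5:**
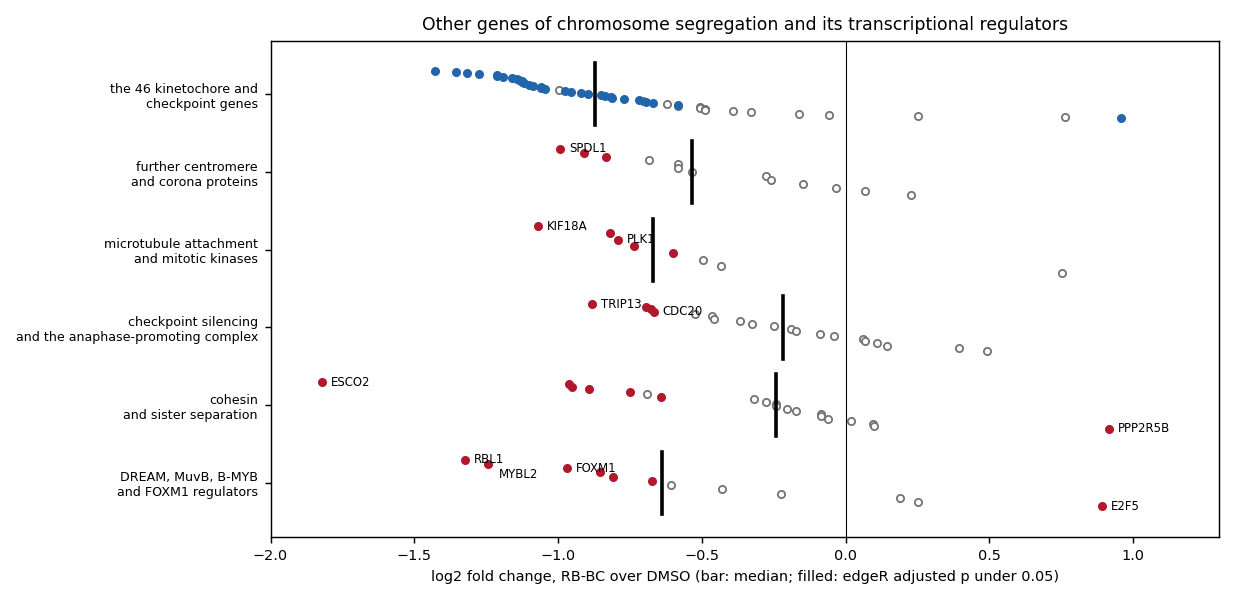
Log2 fold change (RB-BC over DMSO) of the 46 genes (top row, blue where called) and of the 73 further genes in 5 lists (red where called), with medians as bars. The medians of the further lists lie between −0.22 and −0.67, nearer to 0 than the −0.87 of the 46 genes, a difference that was not tested.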

How the data were processed

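RNA from 4 libraries, 2 per group, was compared. The authors deposited 1 table of raw counts, whole numbers for each Ensembl gene. No source used here names the aligner, counting program, strand setting or annotation. The submitters' processing notes list GRCm38 and mm10, both of them mouse builds, although all identifiers are human, so no coordinates of the counted genes are given. Symbols came from an Ensembl name table (20148 genes) and GENCODE release 29 (76 genes), and 39 genes had none. Groups and replicate numbers came from the sample titles. Library pairs of a group were not one library deposited again (chi-square over its degrees of freedom was 257 for DMSO and 40.3 for RB-BC).

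Counts were tested with edgeR 4.0.16 in R 4.3.3: filterByExpr (minimum count 10, minimum total 15), TMM scaling and a quasi-likelihood test, two-sided, with Benjamini-Hochberg adjustment over 13744 genes and a threshold of 0.05. The SE of a log2 fold change is its size divided by the root of the F statistic. The procedure was also run on simulated counts in which both groups had the same spread, and the outcome is not reported here. Alternatives were RLE factors, library totals alone (also without mitochondrially encoded genes), no filter, only genes averaging 50 counts or more, DESeq2 1.42.0, limma-voom (limma 3.58.1), removal of mitochondrially encoded genes, a replicate block and leaving out each library.

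The 46 genes, their role groups and the 73 further genes were chosen with earlier results of these data known. Values in each library are given for the 3 genes with the smallest adjusted p of a role group, all genes of groups of 4 or fewer and all genes without a call. In the further lists the rule names the 3 called genes with the smallest adjusted p in each direction and the 1 with the largest; 1 gene that the rule names is not reported here. PLK1, KNSTRN and CDC23 complete small counts. CENPH, CENPK, DSN1, ESCO2, FOXM1, MYBL2 and RBL1 have values in each library beyond this rule. All of these were chosen after their values were seen.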

Additional observations from a re-analysis of the deposited data

How the results depend on the processing

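The 31 falls among the 46 genes stayed between 30 and 34 with RLE factors, no filter, only genes averaging 50 counts or more, DESeq2, limma-voom and removal of mitochondrially encoded genes. With library totals alone 16 of the 46 and 8 of the 73 further genes fell, and 0 of the 73 rose, as also with library totals after mitochondrially encoded genes were removed (chosen after seeing the data). With 1 library left out in turn, falls ranged from 0 to 36 among the 46 genes and from 1 to 33 among the 73, and rises from 0 to 1 and from 0 to 3. Each such fit has fewer libraries and takes its spread from the pair of 1 group alone. The cause of the differing counts was not tested. When RB-BC 1 was left out the 1 rise was HJURP. Over all genes, calls went from 1035 lower and 1179 higher to 415 and 790 with library totals alone, 56 and 149 when RB-BC 1 was left out, 138 and 312 when RB-BC 2 was, 1628 and 1615 without DMSO 1, and 1760 and 1888 without DMSO 2. The median log2 fold change of the 46 genes ranged from −0.818 to −0.965. None of the 31 called falls changed sign in any of these fits. The replicate numbers mark no shared batch in the labels, and the deviations of DMSO 1 and RB-BC 1 from their group means correlated at −0.0341 across 13744 genes. With the replicate number as a block, 31 of the 46 genes fell, OIP5 gained a call and CENPT lost its call, and 1 rose. With 2 libraries a group the spread behind each adjusted p rests on few libraries, and no gene of the 46 had fewer than 147 counts in a library.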

Other observations

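The difference between the RB-BC libraries for HJURP (1132 and 4560 counts, a 3.99-fold difference in TMM-scaled CPM) stands out. Among 7670 genes with a mean of at least 20 CPM, only 7 genes, HJURP included, differed by as much between these libraries on the log2 scale (pseudocount 0.5 CPM). The difference between the DMSO libraries for BIRC5 (3005 and 1229 counts) was matched or exceeded by 139 such genes, BIRC5 included. HJURP and BIRC5 were chosen for this remark after their values were seen. In both, the libraries of 1 group lie on either side of a library of the other group.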
